A study of Mus musculus with 16 samples.

Results

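Tuft cell genes were followed across the small intestine of mice without Mfge8 or Cd36. They are 10 genes known to mark tuft cells of the gut: Pou2f3, Gfi1b, Trpm5, Il25, Dclk1, Avil, Alox5ap, Alox5, Ptgs1 and Hpgds. They were chosen by name, as the rows with these symbols in both deposited tables, and all 10 had a row among the 24420 features of each table.

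Tuft cells are rare chemosensory cells of the epithelium, with a brush of long microvilli at their tip. In the mouse small intestine their formation needs the transcription factor Pou2f3. Signals from the gut lumen, such as succinate, open the cation channel Trpm5, and the cells release the cytokine Il25 and lipid mediators made from arachidonic acid. Il25 acts on innate lymphoid cells, whose interleukins in turn raise the numbers of tuft and goblet cells.

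The study used 3' tag RNA sequencing, which gives about 1 read per transcript, so levels were not divided by gene length. Primary enterocytes, the epithelial cells that absorb nutrients, came from WT (4 libraries) and Mfge8 null mice (5 libraries, genotype label Mfge8 KO); MFGE8 is a glycoprotein that cells secrete and that integrins bind. Small intestine came from WT (4 libraries) and Cd36 null mice (3 libraries, genotype label Cd36 KO); CD36 is a membrane receptor for long-chain fatty acids. The strain label of all 16 libraries is C57B6, and the labels used here give no age, sex, allele or treatment, and do not say whether libraries of a genotype came from separate mice. Values below are normalised reads, meaning the reads of a library after division by its size factor, and the 2 experiments were normalised separately, so tests were made only within an experiment.

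Enterocyte libraries held 1618369 to 2459812 reads and intestine libraries 850297 to 1000694 reads. A count of 3 reads, taken as the floor of detection, corresponds to 1.22 to 1.85 RPM (reads per 1000000 reads of a library) in enterocytes and 2.998 to 3.53 in intestine. Mfge8 itself had 60 reads in WT and 17 in Mfge8 null enterocytes, with every null library below every WT library (log2 change -1.87, SE 0.46, limma adjusted p = 0.0362). That call held in 9 of 19 alternative settings and was lost without any 1 of WT replicates 1, 2 and 3 or null replicates 1, 2, 3 and 5 (limma adjusted p 0.0505 to 0.161). Cd36 in the intestine was 114.0 normalised reads in WT (111 to 116 over the libraries) and 12.6 in Cd36 null (6.48 to 15.97), a ratio of 0.111. Enterocyte libraries of 1 genotype differed by far more than the sampling of reads gives: chi-square divided by its degrees of freedom was 6.26 to 20.2 in 16 pairs. Intestine libraries of 1 genotype differed by about the sampling noise (0.987 to 1.117 over 9 pairs, 5 of them with p under 0.05, the lowest 2.41e-12). They were therefore counted as 1 sample per genotype: the intestine comparison has no test, its ranges are over libraries, and its 95% intervals cover counting error only. In the libraries labelled enterocytes, enterocyte markers summed to 48337 to 77438 normalised reads, and goblet cell markers to 30243 to 100629. In the libraries labelled small intestine, smooth muscle markers (Acta2, Myh11, Des and Tagln) summed to only 0 to 2.78 and markers of neurons and glia to 0.960 to 4.52.

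To show the start of the genes whose levels differed most and least in the intestine, promoter windows of 300 bases (250 before to 50 after the annotated start, RefSeq, GRCm38.p6) are printed 5' to 3' on the strand of the gene. Trpm5 (chr7:143094593-143094892, minus strand) had the largest ratio there, Avil (chr10:127000459-127000758, plus strand) is a structural gene with a large ratio, and Hpgds (chr6:65144681-65144980, minus strand) had the smallest. Capitals mark the octamer ATGCAAAT, a motif known for binding by POU factors, the family of Pou2f3.
Trpm5: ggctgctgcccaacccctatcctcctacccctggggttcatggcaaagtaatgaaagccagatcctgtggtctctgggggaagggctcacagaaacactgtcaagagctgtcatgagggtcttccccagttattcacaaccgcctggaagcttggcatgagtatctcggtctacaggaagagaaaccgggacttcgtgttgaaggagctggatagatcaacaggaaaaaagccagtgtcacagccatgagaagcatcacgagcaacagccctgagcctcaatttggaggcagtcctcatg
Avil: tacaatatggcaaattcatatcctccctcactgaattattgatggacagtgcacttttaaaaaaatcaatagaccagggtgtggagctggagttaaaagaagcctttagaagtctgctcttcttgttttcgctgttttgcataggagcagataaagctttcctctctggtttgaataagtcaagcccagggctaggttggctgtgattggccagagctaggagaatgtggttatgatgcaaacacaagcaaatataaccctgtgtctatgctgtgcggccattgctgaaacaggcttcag
Hpgds: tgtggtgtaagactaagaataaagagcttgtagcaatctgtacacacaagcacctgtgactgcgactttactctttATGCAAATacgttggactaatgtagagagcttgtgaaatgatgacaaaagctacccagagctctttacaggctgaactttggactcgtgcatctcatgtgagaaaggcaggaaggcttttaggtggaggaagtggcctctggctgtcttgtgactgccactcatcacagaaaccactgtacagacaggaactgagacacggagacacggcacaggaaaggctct
The octamer was searched as ATGCAAAT and its reverse complement ATTTGCAT. Promoter windows were found for 7 of the 10 genes, and Dclk1 had an extra window, which makes 8. Of these 8 windows 1 held it, that of Hpgds, with its first base at position -174 from the start. Among all 32851 promoter windows of the same length, 570 held it (1.74%).

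In the Cd36 null intestine, most of these genes were at a higher level than in WT: Trpm5 3.50-fold, Avil 2.78-fold, Alox5 2.78-fold, Alox5ap 2.63-fold, Ptgs1 2.07-fold and Dclk1 1.83-fold. For each of these 6, every Cd36 null library lay above every WT library, as for 8.61% of all genes compared. Hpgds did not pass a 1.5-fold difference, and Il25 and Gfi1b stayed within the floor in both genotypes. A gene entered the comparison if its value reached 5 in at least 3 libraries, which 7 of the 10 did; Alox5 reached it only with the Cd36 null libraries. Of the 6 genes that reached it in WT alone, 5 were past the fold, against 3.08% of the 8800 genes of the whole table that did so. Among all 9314 genes compared, 4.46% were more than 1.5-fold higher, 6.37% more than 1.5-fold lower, and 2.69% both past the fold upward and apart between the genotypes. More cells of a type and more RNA per cell cannot be told apart in such bulk libraries.

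Among the transcription factors, Pou2f3 missed the entry filter. It had 0, 1.03, 0 and 1.03 normalised reads in WT replicates 1 to 4 and 2.71, 2.13 and 1.85 in Cd36 null replicates 1 to 3. All null libraries lay above all WT libraries, but the 2 against 7 reads behind these values give a ratio of 4.34 with a counting interval of 0.842 to 43.6, which includes no difference. Gfi1b, a zinc finger repressor of blood cell lineages that tuft cells also express, had 2 reads in each genotype, and no fold is given.

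Trpm5, the calcium-activated cation channel that depolarises tuft cells, was at 7.68, 8.26, 6.23 and 8.21 normalised reads in WT and at 31.7, 27.7 and 20.4 in Cd36 null libraries. Its lowest null library was well above its highest WT library, and the ratio of 3.50 has an interval of 2.28 to 5.50. Of the 7 tuft cell genes compared it had the largest ratio. The gene lies at chr7:143069153-143094642 (minus strand, GENCODE M21 on GRCm38), and its 3' end overlaps Tssc4 on the other strand; the strand setting of the counting is not given in the sources used here, so reads of such partners cannot be told apart. Il25, the cytokine that signals to innate lymphoid cells, had 1 read over the WT libraries, in replicate 3, and 2 over the Cd36 null libraries, so a difference was not detectable at this depth.

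Dclk1, a kinase bound to microtubules and the most used tuft cell marker, stood at 40.3, 40.3, 41.6 and 41.0 normalised reads in WT and at 78.7, 74.5 and 71.2 in Cd36 null libraries. The WT libraries were nearly level and all null libraries were higher, with a ratio of 1.83 (interval 1.495 to 2.26). Avil encodes advillin, an actin-bundling protein of the tuft. Its values were 10.6, 17.6, 13.5 and 17.4 in WT and 42.5, 37.3 and 43.5 in Cd36 null, again without overlap, for a ratio of 2.78 (2.045 to 3.90). Avil (chr10:127000709-127020994) overlaps Tsfm on the other strand at its 3' end, with the same limit as for Trpm5; Tsfm averaged 23.4 normalised reads in these libraries and Tssc4 averaged 9.92.

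The last 4 genes make eicosanoids. Alox5ap, the membrane protein that presents arachidonic acid to 5-lipoxygenase, had 31.7, 29.9, 32.2 and 32.8 normalised reads in WT and 80.5, 82.0 and 87.0 in Cd36 null libraries. These groups were far apart, with a ratio of 2.63 (interval 2.114 to 3.28). Alox5, the 5-lipoxygenase that starts leukotriene synthesis, had 5.76, 4.13, 5.196 and 3.08 in WT and 12.7, 15.97 and 9.25 in Cd36 null. Few reads stand behind Alox5 (18 against 39), and its ratio of 2.78 spans 1.53 to 5.08. Ptgs1, the constitutive cyclooxygenase, had 11.5, 12.4, 10.4 and 12.3 in WT and 30.8, 21.3 and 20.4 in Cd36 null, a ratio of 2.07 (1.43 to 3.08). Replicate 1 was the highest of the null libraries, yet the other two were also above all WT libraries. Hpgds, the haematopoietic prostaglandin D synthase, had 8.64, 9.29, 5.196 and 10.3 in WT and 13.6, 9.58 and 10.2 in Cd36 null. Its genotypes overlapped, and the ratio of 1.33 (0.808 to 2.22) includes both no difference and a difference past the fold.

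**Figure D1:**
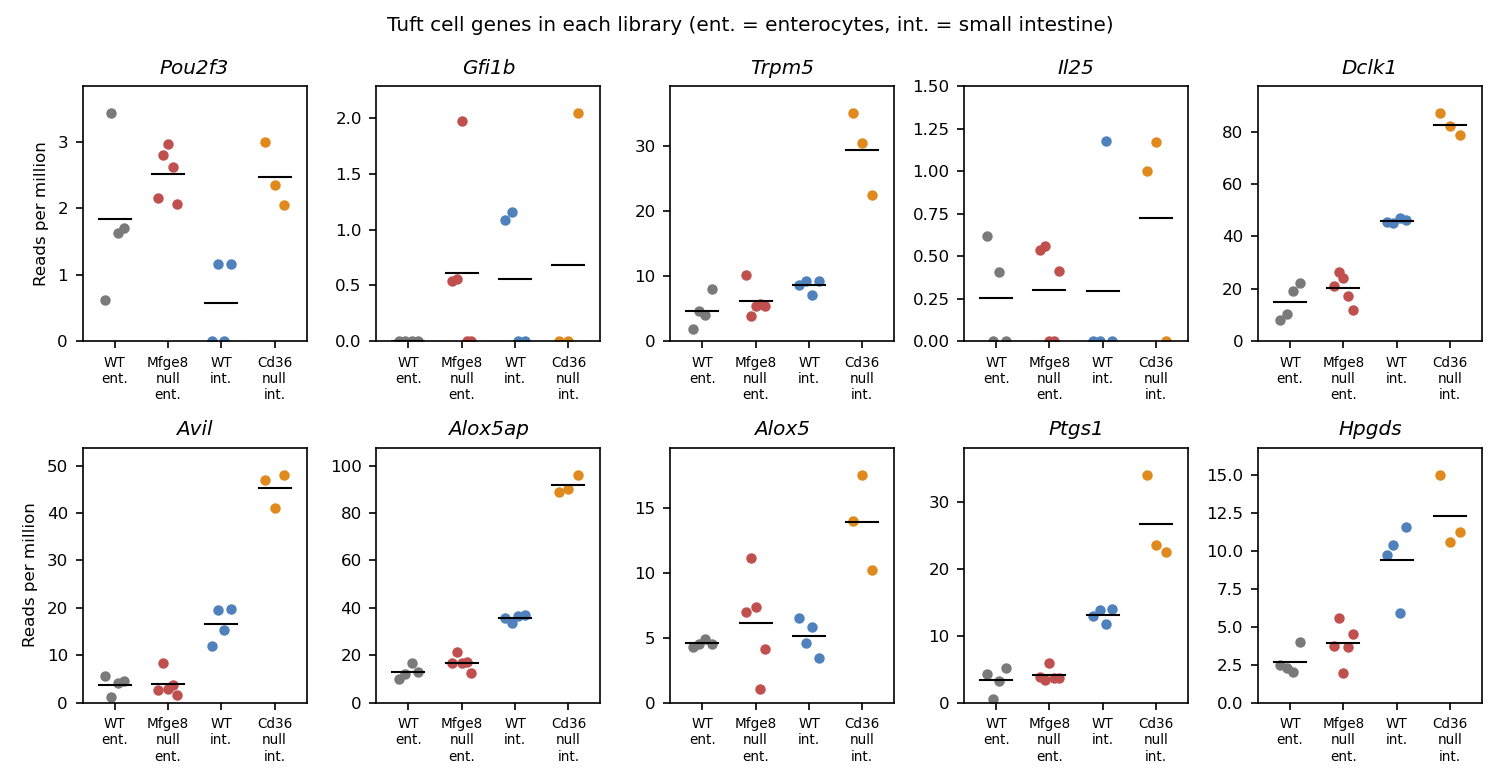
Level of each of the 10 tuft cell genes in RPM (vertical axes, from 0) in every library (points) of the 4 groups, with group means as lines. In the intestine panels of Trpm5, Dclk1, Avil, Alox5ap, Alox5 and Ptgs1 all Cd36 null points lie above all WT points. The enterocyte points of WT and Mfge8 null are apart in no panel. They overlap, or for Gfi1b meet at 0, where all WT and 2 of the 5 null libraries lie.

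Alox5ap, Alox5, Ptgs1 and Hpgds are also made by mast cells, whose markers were higher in the same Cd36 null libraries. The 9 mast cell markers summed to 40.3 to 60.3 normalised reads in WT and to 245 to 285 in Cd36 null libraries. Of the 4 that were compared, the mucosal mast cell proteases Mcpt1 (24.2 against 153) and Mcpt2 (9.41 against 77.1) and the receptor Kit (12.6 against 22.0) were past the fold. The carboxypeptidase Cpa3 was too (3 against 28 reads), but it reached the filter only with the Cd36 null libraries. Of the 5 that were not compared, the receptor chains Fcer1a and Ms4a2 had 1 read each in WT and 9 and 4 in Cd36 null libraries, and Tpsb2, Cma1 and Hdc were at 0 in all intestine libraries. Tpsb2 and Cma1 are mainly known from connective tissue mast cells. Markers of macrophages and other myeloid cells summed to 33.0 to 40.02 in WT and 33.5 to 51.1 in Cd36 null, with Tyrobp and Fcer1g past the fold upward and Itgam downward. Erythroid and megakaryocyte markers, which bear on Gfi1b and Ptgs1, summed to 0.960 to 6.23 and 4.52 to 6.39, with the haemoglobin genes and the platelet gene Ppbp at 0. The haemoglobin genes were also at 0 in all enterocyte libraries, where Alas2 of the same list had 77 reads in WT and 31 in Mfge8 null. Whether a 0 of these genes reflects the absence of blood cells was not tested. In the intestine, neuron and glia markers summed to 0.960 to 3.12 in WT and 1.85 to 4.52 in Cd36 null, with Uchl1 and S100b at 0. Enteroendocrine markers summed to 247 to 264 in WT and 324 to 343 in Cd36 null, with none of the 5 compared past the fold. Chgb, the most abundant, was at 95.8 against 139.5. Goblet cell markers summed to 6120 to 6414 in WT and 6978 to 7056 in Cd36 null. The means of all 6 were higher in Cd36 null, with 0 past the fold. The 6 fibroblast markers summed to 19.2 to 33.3 in WT and 9.95 to 11.7 in Cd36 null. Most of this sum was Dcn (19.9 against 8.43), the 1 marker of the list that was compared, which was past the fold downward. The sum of ileal markers was also lower, at 983 to 1046 against 689 to 748. The largest part of the ileal sum was Slc51a (523 against 454), which was not past the fold. Fabp6 (278 against 69.2) and Slc10a2 (14.5 against 9.15) were past the fold downward. The ileal marker Fgf15 was higher in all Cd36 null libraries (7.84 against 24.8, ratio 3.17, interval 2.04 to 4.93). Markers of T cells and intraepithelial lymphocytes summed to 620 to 797 in WT and 546 to 569 in Cd36 null, with Cd7 and Gzmb past the fold downward. The part of these other cell types and of intestinal region in the tuft cell gene values was not tested.

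**Figure D2:**
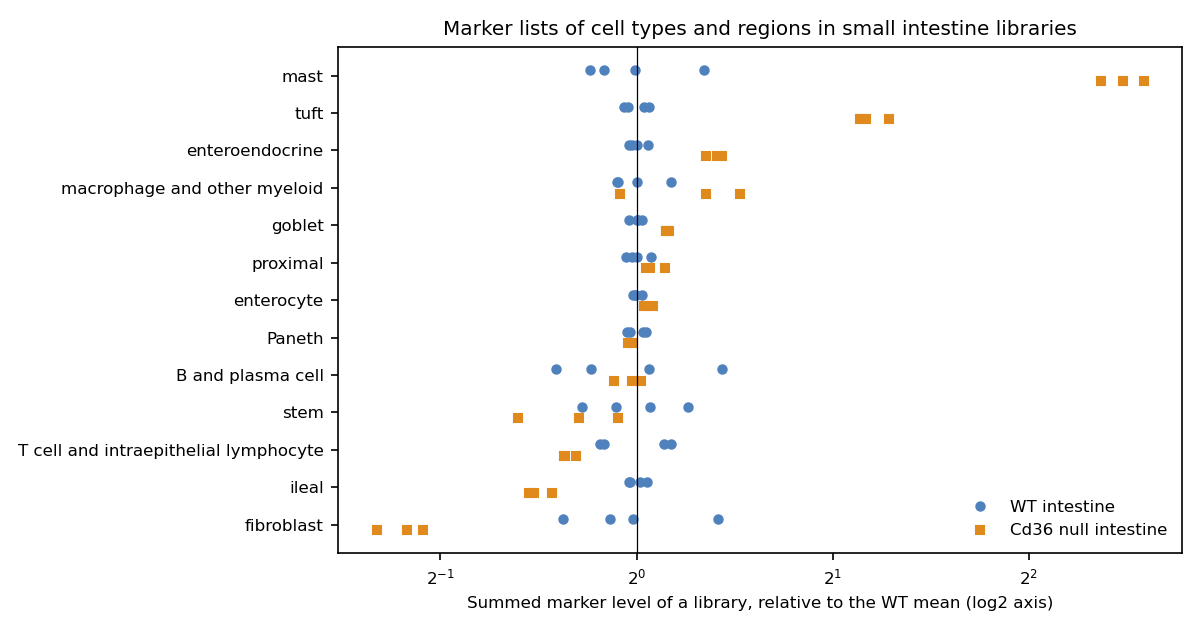
Summed level of each marker list in every intestine library relative to the mean of the WT libraries (log2 axis), WT as circles and Cd36 null as squares. Mast and tuft cell markers lie to the right in all 3 Cd36 null libraries and fibroblast and ileal markers to the left, while Paneth and enterocyte markers lie near the WT mean.

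Summed over the 10 genes, the intestine libraries gave 115 to 126.2 normalised reads in WT and 266 to 294 in Cd36 null, a ratio of 2.296 (interval 2.05 to 2.58). This sum is led by Dclk1 and Alox5ap. Over the 7 genes compared the median log2 ratio was 1.39, against -0.00416 over all 9314 genes. In the band of mean levels that these genes span, 4.44% of 4860 genes were past the fold upward.

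In enterocytes none of the tuft cell genes passed the test between Mfge8 null and WT. Limma called 0 of the 8 genes that reached a value of 5 in at least 4 libraries, and 303 of all 9432 genes tested (3.21%), of which 149 were higher (1.58% of those tested) and 154 lower (1.63%). At an unadjusted p under 0.05 the count was 0 of 8, against 15.9% of all genes, and edgeR and DESeq2 on the recovered reads also called 0. The number called overall moved with single libraries and came to 135 without WT replicate 1, 169 without WT replicate 2, 185 without null replicate 3 and 200 without null replicate 5. For no tuft cell gene were the 2 genotypes apart. Their ranges overlapped, or for Gfi1b met at 0, the value of all WT and 2 null libraries. Of all genes tested, 3.35% had every null library above every WT library.

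The regulators were near the floor. Pou2f3 had 1.17, 6.24, 3.14 and 2.98 normalised reads in WT replicates 1 to 4 and 3.92, 5.48, 5.99, 5.35 and 4.10 in Mfge8 null replicates 1 to 5. WT replicate 2 was the highest of all 9 and the other WT libraries lay below every null library (log2 change 0.56, SE 0.47, limma adjusted p = 0.621, exact permutation p = 0.127). Gfi1b was at 0 in all 4 WT libraries and had 0.979, 1.10, 3.995, 0 and 0 normalised reads in null libraries. These are 6 reads, 4 of them in null replicate 3, and the null mean of 0.615 RPM lies under the floor of a single library, so no fold is given; the exact permutation p was 0.238. Il25 had 2 reads in WT and 3 in Mfge8 null libraries, with 0 in 2 libraries of each genotype, and no fold is given.

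Trpm5 had 3.51, 8.32, 7.84 and 13.9 normalised reads in WT and 18.6, 7.67, 10.99, 11.8 and 10.7 in Mfge8 null enterocytes. Null replicate 1 was the highest, and the other null libraries fell within the WT range (log2 change 0.53, SE 0.39, limma adjusted p = 0.548, exact permutation p = 0.222). Dclk1 had 15.2, 18.7, 36.8 and 38.7 in WT and 38.2, 51.5, 48.9, 35.3 and 23.8 in Mfge8 null. Its WT libraries formed a low and a high pair, and 2 of the 5 null libraries lay above the high pair (log2 change 0.57, SE 0.31, limma adjusted p = 0.3801, exact permutation p = 0.175). Avil had 10.5, 2.08, 7.84 and 7.94 in WT and 4.90, 16.4, 5.99, 7.50 and 3.28 in Mfge8 null. The log2 change of Avil was 0.07 with an SE of 0.50, and its sign rested on single libraries: it was -0.34 without WT replicate 2, -0.23 without null replicate 2 and -0.00497 with libraries scaled to equal totals (limma adjusted p = 0.969 over all libraries).

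Among the eicosanoid genes, Alox5ap came nearest to a difference. It had 18.7, 21.8, 32.1 and 22.8 normalised reads in WT and 30.4, 41.7, 34.0, 35.3 and 24.6 in Mfge8 null enterocytes. All 5 null libraries lay above the WT mean and 3 above the highest WT library (log2 change 0.47, SE 0.24). The exact permutation p was 0.0476, where 4 against 5 libraries can give 0.00794 at the lowest, but over all genes the limma adjusted p was 0.355. Alox5 had 8.18, 8.32, 9.41 and 7.94 in WT and 12.7, 21.9, 14.98, 2.14 and 8.20 in Mfge8 null. Its WT libraries were close together while null replicate 2 was high and null replicate 4 low (log2 change 0.19, SE 0.48, limma adjusted p = 0.899). The change of Alox5 turned to -0.082 without null replicate 2 and to -0.044 with a score of proximal and ileal markers in the fit. Ptgs1 had 8.18, 1.04, 6.27 and 8.93 in WT and 6.86, 6.58, 12.0, 7.50 and 7.38 in Mfge8 null. WT replicate 2 was the low library and null replicate 3 the high one (log2 change 0.55, SE 0.48, limma adjusted p = 0.634). Hpgds had 4.68, 4.16, 3.92 and 6.95 in WT and 6.86, 10.96, 3.995, 7.50 and 9.02 in Mfge8 null, where 3 null libraries lay above all WT libraries (log2 change 0.52, SE 0.40, limma adjusted p = 0.578).

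The log2 changes of the 8 tested genes had a median of 0.53, against 0.00102 over all genes. All 8 were above 0, as were 50.1% of all genes tested. Of the 8, 5 reached the filter only with null libraries (Avil, Trpm5, Pou2f3, Ptgs1 and Hpgds), so these counts are a description. Summed over the 10 genes, WT enterocytes had 90.1 ± 22.1 normalised reads (SD, n = 4) and Mfge8 null enterocytes 127 ± 27.6 (SD, n = 5). The ratio was 1.41, and 4 of the 5 null libraries lay above the highest WT library. In the same libraries mast cell markers summed to 9.35 to 45.7 in WT and 11.8 to 82.3 in Mfge8 null, and myeloid markers to 80.0 to 154 and 85.5 to 184. Markers of T cells and intraepithelial lymphocytes summed to 1127 to 3323 in WT and 3120 to 7293 in Mfge8 null, and enteroendocrine markers to 897 to 1455 and 568 to 1420. B and plasma cell markers summed to 14.0 to 120 in WT and 191 to 447 in Mfge8 null, without overlap, and Jchain of plasma cells rose (log2 change 2.55, SE 0.43, limma adjusted p = 0.00331). The part of these cells in the tuft cell gene values was not tested.

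**Figure D3:**
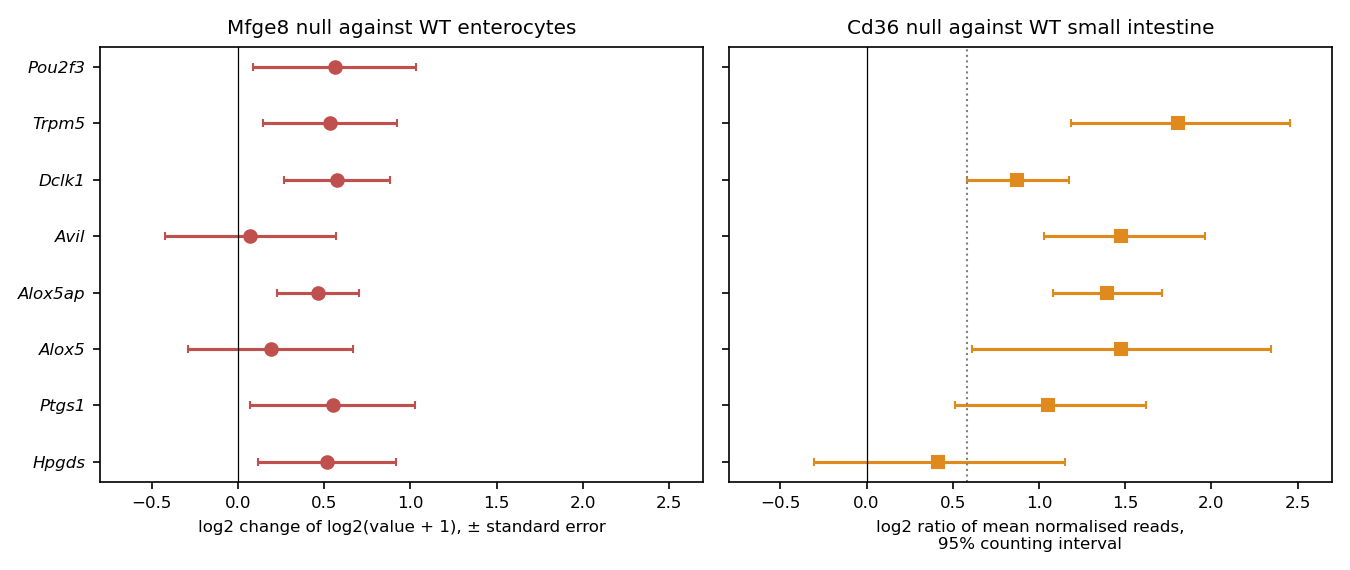
Differences between null and WT for the tuft cell genes that passed the filter on low values; the left panel gives limma log2 changes ± SE in enterocytes and the right panel log2 ratios of mean normalised reads with 95% counting intervals in the intestine, where Pou2f3 did not pass. The dotted line is the 1.5-fold ratio; in the right panel only the point of Hpgds lies left of it, and in the left panel 0 of 8 changes passed the adjusted test.

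The order of the genes by level was similar at its top in the 4 groups. In WT enterocytes Dclk1 (14.9 RPM) and Alox5ap (12.9) led, with overlapping ranges, and stood apart from Trpm5 (4.61). Below it Alox5 (4.58), Avil (3.83), Ptgs1 (3.32), Hpgds (2.69), Pou2f3 (1.84) and Il25 (0.256) each overlapped with the next, and Gfi1b was at 0. Mfge8 null enterocytes had the same leaders, Dclk1 (20.1 RPM) and Alox5ap (16.9), whose ranges overlapped, then a run of 6 genes from Alox5 (6.15) to Pou2f3 (2.52) in which each overlapped with its neighbour. In WT intestine Dclk1 (46.0 RPM) stood above Alox5ap (35.7) without overlap, Avil (16.6) overlapped with Ptgs1 (13.1), and Hpgds (9.40) overlapped with Trpm5 (8.56). In Cd36 null intestine the mean of Alox5ap (91.8 RPM, 260 reads) was above that of Dclk1 (82.6 RPM, 234 reads). Intestine libraries count as 1 sample per genotype. The ranges of Dclk1 and Alox5ap, though apart in WT and in Cd36 null intestine, therefore do not settle their order, which was not tested. In the other groups the mean of Dclk1 was the higher, with overlapping ranges in both enterocyte groups. Avil in Cd36 null intestine was at 45.3, and Trpm5 (29.3) overlapped with Ptgs1 (26.6). Pou2f3, Il25 and Gfi1b held the lowest 3 places in every group, at means of 0 to 2.52 RPM. The summed level was 49.0 RPM in WT enterocytes, 64.6 in Mfge8 null enterocytes, 136 in WT intestine and 306 in Cd36 null intestine; across the experiments these values stand side by side only.

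Within genotypes the enterocyte libraries did not vary alike for all genes. Among the null libraries, replicate 2 was the highest for 5 of the 8 tested genes. Among the WT libraries, replicate 4 was the highest for 4 and replicate 1 the lowest for 4. As a description over 9 libraries that share a table, the deviation of Dclk1 from its genotype mean had a Pearson correlation of 0.859 with the mean deviation of the other tested tuft cell genes, and that of Alox5ap 0.587. The other 6 ranged from -0.187 (Pou2f3) to 0.384 (Avil), at values where 1 read more or less moves a library. The 10 other genes of the table whose deviations were most like the mean of the tuft cell genes were Kctd11 (r = 0.958), Rap1gds1, Dnajc21, Llgl2, Cbx5, Rraga, Pgm3, Arhgap19, Zfp961 and Mylk (r = 0.894). They are the top of a ranking of the 9432 genes tested, over only 9 libraries. How high the top values come to lie for unrelated genes was not tested.

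Beyond the 10 genes, further genes known from tuft cells were read from the same comparisons. Of 55 listed, 52 had a row, and 35 could be compared in each experiment. In the Cd36 null intestine 21 of the 35 were more than 1.5-fold higher and 0 lower, with a median log2 ratio of 1.03. Of the 26 that reached the filter in WT alone, 12 were past the fold, against 3.08% of all such genes; the other 9 (Sucnr1, Chat, Matk, Cwh43, Gprc5c, Fam221a, Smpx, Ildr1 and Gm684) reached it only with Cd36 null libraries. In the group of identity and structure genes 27 were compared, of which 7 reached the filter only with Cd36 null libraries. All of these 7, Smpx among them, were past the fold upward, so the count over the group is a description. Past the fold upward were 4.46% of all genes compared and 18 of these 27. They included Kctd12 (52.9 against 125 normalised reads, ratio 2.36, interval 1.99 to 2.80), the lectin Siglecf (21.4 against 54.8, ratio 2.57), Lrmp (23.8 against 52.6, ratio 2.21), the adaptor Sh2d7 (12.0 against 30.7, ratio 2.56) and the tyrosine kinase Bmx (9.06 against 26.1, ratio 2.88). Also past the fold were Matk, Cd24a, Cwh43, Gprc5c, Spib, Camk2b, Fam221a, Vav1, Tspan6, Smpx, Ildr1 and Gm684, at ratios of 1.57 (Vav1) to 3.70 (Smpx). Siglecf also marks eosinophils. Of their listed markers Epx and Prg2 had 0 reads in the intestine libraries, where a count of 0 allows up to 2.998 to 3.53 RPM. The marker Ccr3 had 2 reads in WT and 0 in Cd36 null libraries. The part of eosinophils in the values of Siglecf was not tested. In the signalling group 3 of 8 were past the fold, of which Sucnr1 and Chat entered only through the Cd36 null libraries, where they were high. The 3 were the succinate receptor Sucnr1 (2.25 against 8.58, ratio 3.82, interval 1.66 to 8.85), the regulator of G-protein signalling Rgs13 (19.96 against 53.2, ratio 2.67, interval 2.01 to 3.49) and Chat, which makes acetylcholine (3.33 against 7.03, with an interval of the ratio of 1.03 to 4.62).

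**Figure D4:**
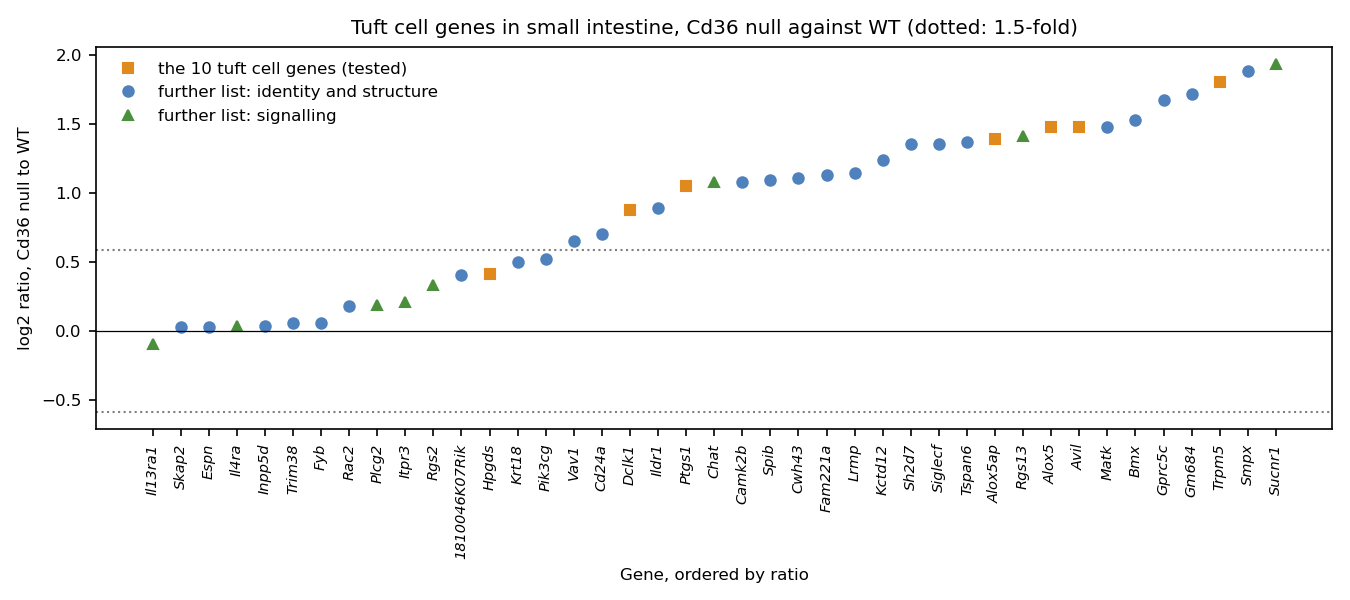
Log2 ratio of mean normalised reads, Cd36 null to WT intestine, for the tuft cell genes and the further tuft cell genes that passed the filter (horizontal axis, ordered by ratio); dotted lines mark 1.5-fold either way. Of the 34 further genes plotted 20 lie above the upper line and 0 below the lower one, and Il13ra1 is the 1 gene below 0. Among the further genes plotted are 9 that reached the filter only with Cd36 null libraries.

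In enterocytes 35 further genes were tested, of which 9 reached the filter only with Mfge8 null libraries. Their counts and the median log2 change of 0.29 over the 35 are therefore a description. The genes called are not among these 9. In Mfge8 null libraries 3 of the 35 rose and 0 fell, where 1.58% of all genes tested rose and 1.63% fell. They were Plcg2, a phospholipase C (14.5 ± 3.90 normalised reads in 4 WT libraries and 33.3 ± 6.05 in 5 null libraries, SD; log2 change 1.17, SE 0.25, limma adjusted p = 0.0157), the inositol trisphosphate receptor Itpr3 (139 ± 12.3 against 218 ± 17.8, log2 change 0.65, SE 0.14, limma adjusted p = 0.0162) and Il4ra, a receptor chain for type 2 interleukins (156 ± 17.4 against 248 ± 43.7, log2 change 0.65, SE 0.16, limma adjusted p = 0.0362). Other cell types express all 3. The call of Plcg2 held in 19 of 20 alternative settings, that of Itpr3 in 16 and that of Il4ra in 10; without WT replicate 1 and without WT replicate 2 the count was 1. Itpr3 lost its call without either of these libraries (limma adjusted p = 0.0703 and 0.0591), and Il4ra without any 1 of WT replicates 1, 2 and 4 or null replicates 2 to 5 (0.0549 to 0.118). In the intestine the same 3 genes had ratios of 1.14 (Plcg2), 1.15 (Itpr3) and 1.02 (Il4ra), none past the fold.

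Of the other eicosanoid genes, 2 of 11 were past the fold upward in the Cd36 null intestine, against 4.46% of all genes; Ltc4s, 1 of the 2, reached the filter only with Cd36 null libraries. Ltc4s, which makes leukotriene C, had 2.52 against 6.54 normalised reads with overlapping libraries (ratio 2.59, interval 1.13 to 6.04), and Ptgr1, which inactivates prostaglandins and leukotrienes, had 139 against 213 (ratio 1.53, interval 1.36 to 1.71). In enterocytes 1 of 9 passed the test, against 3.21% of all genes: Ptgr1 fell in Mfge8 null libraries, from 977 ± 268 (SD, n = 4) to 434 ± 100.5 (SD, n = 5), with a log2 change of -1.16, an SE of 0.21 and a limma adjusted p of 0.00494. Of the genes around the type 2 response, 7 could be compared in the intestine, of which Il1rl1 and Retnlb only through the Cd36 null libraries, where they were high. Retnlb, a goblet cell product, was at 3.71 against 32.9 normalised reads (ratio 8.87, interval 5.02 to 16.1). Il1rl1, the receptor of the alarmin Il33 on mast cells and lymphoid cells, had 1 read in WT and 27 in Cd36 null libraries, and with so low a WT count only the counting interval of the ratio, 5.62 to 1396, is given. Gata3, a transcription factor of T cells and innate lymphoid cells, was lower, at 8.08 against 1.57 (ratio 0.194, interval 0.0600 to 0.510). The interleukins Il4, Il5, Il9 and Il13 had 0 reads in all 7 intestine libraries, where a count of 0 allows up to 2.998 to 3.53 RPM. In enterocytes 0 of 4 genes of this list passed the limma test, and 0 had an unadjusted p under 0.05.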

How the data were processed

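Reads were 3' tags from 9 enterocyte and 7 small intestine libraries of mice, grouped by the sample labels. Tools named in the submitters' processing notes are DESeq2 2.11.40, HISAT2 2.1.0, HTSeq 0.91 and Trimmomatic 0.38.1, with mm10; their settings, the use of molecular identifiers and the strand setting are not given in the sources used here. The deposited values are a normalised signal in 2 tables, 1 per experiment. Values were whole multiples of 1 step per library (100% of values within 1e-06), so the authors' values were taken as reads divided by a size factor, and whole reads were recovered. The step of WT replicate 4 and Mfge8 null replicate 3 lies so near 1 that it is less certain, and edgeR was therefore repeated without both. Size factors were 0.855 to 1.28 for enterocytes and 0.939 to 1.105 for intestine. PCR copies are not independent molecules where identifiers were not collapsed, and floors and intervals therefore reflect counting error alone.

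For enterocytes, the 9432 genes that reached a value of 5 in 4 or more libraries were tested 2-sided with limma 3.58.1 (R 4.3.3, trended variance) on log2(value + 1), and p-values were adjusted by Benjamini and Hochberg's method over all of them (threshold 0.05). This scale understates the change of low genes. Single genes were also tested by a 2-sided exact permutation test over 126 splits. For the intestine, the 9314 genes that reached 5 in 3 or more libraries were compared by the ratio of group means, with a fold of 1.5 and exact binomial (Clopper-Pearson) 95% intervals, and without a test, because pairs of libraries of a genotype (chi-square test over genes with 20 or more reads summed over a pair) differed by about the sampling noise. P-values in enterocytes measure the spread between libraries, which may be technical where libraries are not separate mice. The limma procedure was checked on simulated data. Alternatives were other pseudocounts (0.5 and 5), filters, scalings, edgeR 4.0.16 and DESeq2 1.42.0 on recovered reads, a score of proximal and ileal markers as a covariate, the replicate number as a block, and leaving out each library.

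The labels name no batch. All 10 genes are named; of each further list, the genes called or past the fold are named, and those given with their values were chosen after these were seen. The other genes named are the targeted genes, leading markers of other cell types and the 10 genes most alike in pattern. The genes and lists were chosen with earlier results of these data known. Sh2d6, Irag2 and Pou2af2 of the further lists have no row in the tables used here, and 1 gene of these lists and 1 marker gene enter the counts and sums but are not reported here by themselves.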

Additional observations from a re-analysis of the deposited data

Results flagged for a closer look

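Of 32 groups of 4 or 5 libraries checked for a library far from the others, 3 held one. The rate of about 1 in 20 set for this rule assumes normal values, so it does not hold for counts near 0. The groups also include the sum of the genes, which is not independent of them. Ptgs1 was at 12.0 normalised reads in Mfge8 null replicate 3, while the other null enterocyte libraries were at 6.58 to 7.50. Gfi1b was at 3.995 in the same library (4 reads), with the other null libraries at 0 to 1.10. Il25 was at 1.04 in WT intestine replicate 3, which is 1 read, with 0 in the other WT intestine libraries. Where all other libraries are at 0, any read is flagged by this rule.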

How the results depend on the processing

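Over the alternatives run, 0 of the tuft cell genes was called in enterocytes under all 20, and 5 or 6 were past the fold, or called by limma, in the intestine under all 11; without single intestine libraries the count stayed at 6. The summed ratio kept its direction in both experiments (log2 0.38 to 0.60 in enterocytes and 1.15 to 1.34 in the intestine). In enterocytes the sign of 2 small changes turned. Avil went to -0.00497 with equal totals and ranged from -0.34 to 0.29 without single libraries, with -0.23 without null replicate 2; Alox5 went to -0.044 with the regional score and ranged from -0.082 to 0.63 without single libraries. The cause was not tested.

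The count of all genes called in enterocytes (303) was 146 with the regional score and 135 to 387 without single libraries. The count of further tuft cell genes (3) was 1 with the regional score, 0 with edgeR on 7 libraries and 1 to 3 without single libraries. In the intestine a filter at 10 left 239 genes (415) and 12 further tuft cell genes (21) past the fold, since fewer genes are then compared; without single libraries they were 436 to 465 and 20 to 22. Treated as 7 separate samples, limma called 392 genes higher and 6 tuft cell genes, with an adjusted p of 0.0167 for Alox5 and 0.581 for Hpgds.

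Replicate numbers did not pair the libraries: deviations of libraries with the same number correlated at -0.120 to 0.214 over 4 enterocyte pairs, and at -0.0147 to 0.00334 over 3 intestine pairs, and 1 of the WT enterocyte libraries and 0 of the WT intestine libraries were most like their own number. With the replicate block 229 genes and 0 tuft cell genes were called in enterocytes, and Il4ra and Mfge8 lost their calls (limma adjusted p of 0.115 and 0.126). In the intestine the block gave 371 genes and 5 tuft cell genes higher, Alox5 at 0.0686. Depth limits Pou2f3, Il25 and Gfi1b, with at most 7 reads per genotype in the intestine.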
